A study of Mus musculus with 35 samples.

Results

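The Hox clusters are described here by the 139 ATAC-seq peaks, of 76018 in all, whose midpoint lay in any of 4 intervals of the mouse genome (build mm9). The intervals were Hoxa on chromosome 6 from 52.1 to 52.225 Mb, Hoxb on chromosome 11 from 96.05 to 96.235 Mb, Hoxc on chromosome 15 from 102.74 to 102.875 Mb, and Hoxd on chromosome 2 from 74.485 to 74.61 Mb. Hoxa held 44 peaks, Hoxb 42, Hoxc 24 and Hoxd 29. In ATAC-seq a transposase places adapters wherever DNA is accessible, and the number of reads in a peak rises with the openness of that stretch of chromatin.

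Endothelial cells (EC) and hemogenic endothelium (HE), the endothelium that gives rise to blood, were sorted from mouse embryos on 3 days of development (E8.5, E9.5, then E10.5), and each of these 6 groups had 4 libraries. A population labelled pro-HSC/HPC (stem and progenitor cells of the blood) was taken at E9.5 with 3 libraries, and the precursors of hematopoietic stem cells named pre-HSC I and, later in maturation, pre-HSC II at E10.5 with 4 libraries each. In pre-HSC I the counts of 2 libraries (2 and 3) differed by less than the sampling noise and were counted as 1 sample, which left 3 for that group and 34 in all. Each library was made from 1500 pooled cells. Every group, the EC controls included, carried the genotype that the labels write as 23GFP transgenic, and the labels do not say what drives the GFP. The tissue label was PAS+VU at E8.5 and E9.5 and AGM+VU at E10.5, so tissue and day cannot be told apart between E9.5 and E10.5. No label says that libraries of a group came from separate litters, and a p-value here measures only the spread between these samples. The labelled cell types were not checked against marker genes, because peaks were not assigned to genes here.

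Hox genes encode homeodomain transcription factors that give cells their position along the body axis. In mammals they lie in 4 clusters, and genes at the 3′ side of a cluster, such as Hoxa2, Hoxb1, Hoxc4 and Hoxd1, are in general switched on earlier and further forward in the embryo than genes at the 5′ side, such as Hoxa13 and Hoxd13. Opening and closing of the chromatin along a cluster accompanies this order. Hoxa9 and Hoxb4 are known for their roles in blood stem and progenitor cells, and Hoxa3 for a role in endothelium. In mm9 coordinates as in the RefSeq gene order of GRCm38.p6, the 3′ side is the start of the Hoxa interval and the end of the other 3. Positions below are in kilobases (kb) from that 3′ edge.

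The 3′ ends of the clusters are shown by the sequence before the start site of the gene nearest the 3′ side in each cluster among those matched, because positions are counted from there. The 250 bases are from RefSeq (GRCm38.p6), 5′ to 3′ on the gene's strand, with CG pairs in capitals, since CG-rich start regions are a known feature of Hox genes. They lie at chr6:52164832-52165081 on the minus strand, and at chr11:96365508-96365757, chr15:103034145-103034394 and chr2:74762730-74762979 on the plus strand.
Hoxa2: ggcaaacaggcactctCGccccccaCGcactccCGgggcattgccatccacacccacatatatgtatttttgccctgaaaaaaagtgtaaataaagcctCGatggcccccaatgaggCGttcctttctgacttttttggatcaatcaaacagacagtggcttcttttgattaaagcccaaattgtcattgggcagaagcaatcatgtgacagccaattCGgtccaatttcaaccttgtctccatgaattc
Hoxb1: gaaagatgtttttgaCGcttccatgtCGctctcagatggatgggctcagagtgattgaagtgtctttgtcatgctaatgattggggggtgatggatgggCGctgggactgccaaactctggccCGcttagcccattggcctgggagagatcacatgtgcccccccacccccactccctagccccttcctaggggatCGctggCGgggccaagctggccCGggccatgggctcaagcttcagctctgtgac
Hoxc4: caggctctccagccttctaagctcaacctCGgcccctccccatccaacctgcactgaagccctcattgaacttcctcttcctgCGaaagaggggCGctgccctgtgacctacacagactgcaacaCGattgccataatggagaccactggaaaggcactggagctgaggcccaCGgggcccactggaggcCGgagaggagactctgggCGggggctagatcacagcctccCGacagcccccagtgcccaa
Hoxd1: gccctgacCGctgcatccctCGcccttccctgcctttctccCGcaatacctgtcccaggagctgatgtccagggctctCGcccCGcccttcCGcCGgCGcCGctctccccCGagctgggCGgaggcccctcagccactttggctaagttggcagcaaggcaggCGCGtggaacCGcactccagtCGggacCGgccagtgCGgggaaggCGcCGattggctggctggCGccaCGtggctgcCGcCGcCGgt
The stretches held 6 CG pairs in Hoxa2, 7 in Hoxb1, 8 in Hoxc4 and 24 in Hoxd1. Of 38 Hox genes, 22 were matched in the RefSeq promoter table, with 24 promoters of 300 bases. Their median was 14.5 CG pairs, against 7 over all 32851 promoters of that table. The letters TGATNNAT, a form of the site that Pbx and Hox proteins bind together, were found on either strand in 4 of the 24 (16.7%), those of Hoxa2, Hoxb1, Hoxb8 and Hoxd11, against 8.85% of all promoters. The homeodomain core TAATTA was found in 2 of the 24 (8.33%), both of Hoxd11, against 5.29% of all. A match is a description of letters and not a bound site, and these promoters were not placed on the mm9 peaks.

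The clusters also carry microRNA genes of the miR-10 and miR-196 families, which are known to target Hox transcripts, and their mature sequences show how alike the copies in separate clusters are. Bases 2 to 8, the seed that pairs with target transcripts, are in capitals, and the sequences are from RefSeq (GRCm38.p6).
miR-10a-5p: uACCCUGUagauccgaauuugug
miR-10b-5p: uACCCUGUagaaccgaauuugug
miR-196a-5p: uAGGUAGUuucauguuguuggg
miR-196b-5p: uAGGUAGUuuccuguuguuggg
The miR-10a gene lies in the Hoxb cluster and miR-10b in Hoxd, miR-196a is encoded in both Hoxb and Hoxc, and miR-196b in Hoxa. Within each family the printed pair differed at 1 base, outside the seed. MicroRNA levels were not measured here.

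The total count in peaks was 456770 to 7415315 per library, and 320 to 10026 of these counts lay in Hox peaks. The pre-HSC II libraries were the shallowest group, with 456770 to 1241216 counts. Levels are given as CPM, the counts per 1000000 counts of a library, with library totals adjusted by TMM, a method that assumes that most peaks do not change. Peaks with too few counts were left out of the tests, which kept 122 Hox peaks (Hoxa 39, Hoxb 35, Hoxc 23 and Hoxd 25), or 87.8%, against 88.3% of all peaks. The 17 Hox peaks left out held 77 to 224 counts over all libraries and were 111 to 404 bp wide. A peak was called where the Benjamini-Hochberg adjusted p of edgeR's quasi-likelihood test was under 0.05, adjusted over all 67131 peaks tested. Fold changes are log2 values with their standard error (SE).

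Peaks were dense in the clusters. Hox intervals held 24.4 peaks per 100 kb and peaks covered 18.4% of their length, against 5.25 peaks and 3.74% in the 500 kb on either side. Hoxa was the densest, with 35.2 peaks per 100 kb and 28.9% covered, and Hoxc the sparsest, with 17.8 peaks and 13.6%. Within Hoxa the peaks covered 43.8% of the middle segment when each interval was divided into 3 equal segments, and 14.4% of the 5′ segment. The 5′ segments of the other clusters held few peaks: Hoxb had 1 peak there, Hoxc 3 and Hoxd 5. Hox peaks were not taller than others. The median level per kb of peak was 8.93 CPM in Hox peaks, 10.8 CPM in all peaks and 12.1 CPM in the 210 peaks of the flanks.

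**Figure D1:**
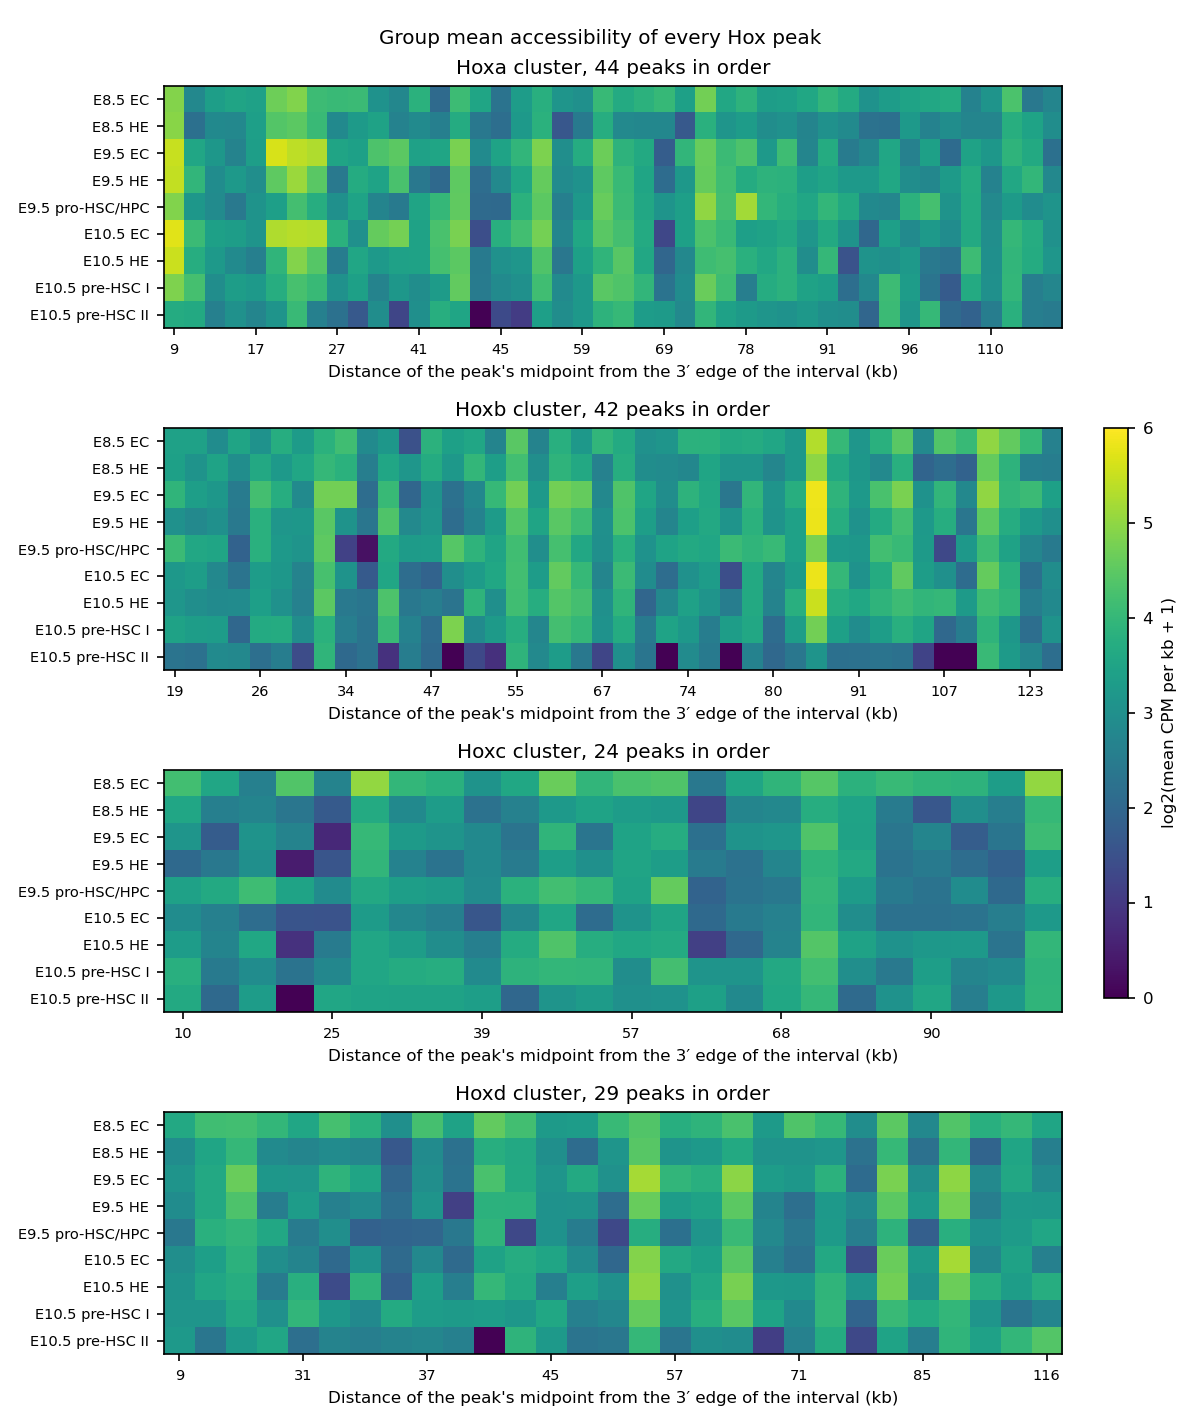
Accessibility of every Hox peak in the 9 groups. Columns are peaks in order of their distance from the 3′ edge (kb), rows are groups, and colour is log2 of the mean CPM per kb of peak plus 1. Yellow is high and dark blue is 0. Some peaks, such as that at 9 kb in Hoxa, are bright in nearly every row, the E8.5 EC row of Hoxc is brighter than the rows below it at 15 of 23 tested peaks, and most of the darkest fields are in the pre-HSC II row.

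The highest levels of most Hox peaks were in EC and the lowest in pre-HSC II or E8.5 HE. Of the 122 peaks tested, 49 had their highest group mean in E8.5 EC and 30 in E9.5 EC, while 50 had their lowest in pre-HSC II and 19 in E8.5 HE. Hoxc and Hoxd had the most peaks at their highest in E8.5 EC, 15 of 23 and 14 of 25. Hoxb had 16 peaks at their highest in E9.5 EC and 22 of 35 at their lowest in pre-HSC II. These are counts of an order of means with no test. The same counts were not made over all peaks, so they do not show a trait particular to Hox peaks. The pre-HSC II libraries were also the shallowest, with 456770 to 1241216 counts.

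**Figure D2:**
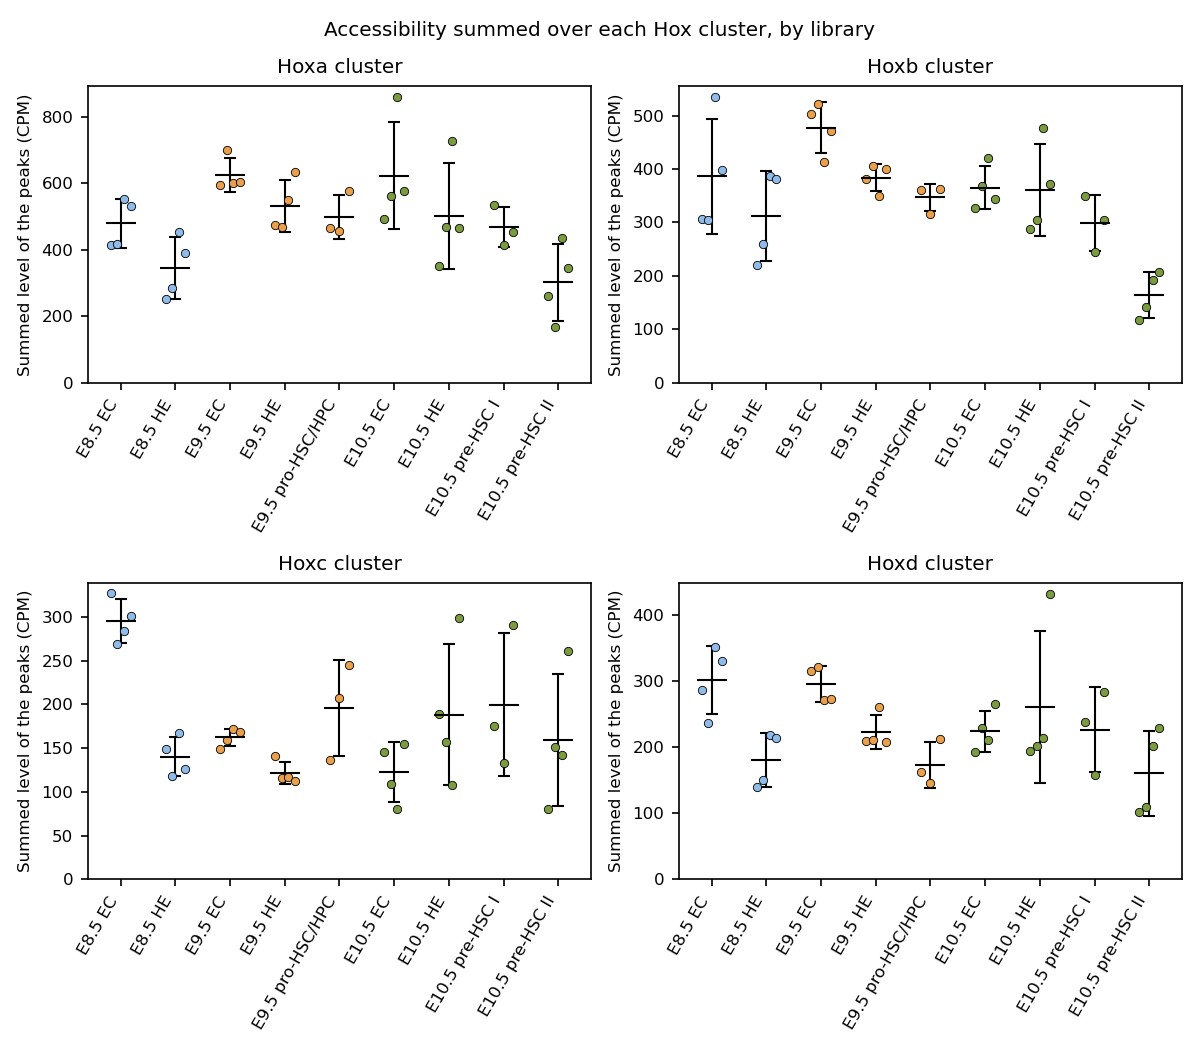
Level summed over the peaks of each cluster (CPM) in every library. Points are libraries, horizontal bars the group mean and vertical bars the SD. In Hoxc the E8.5 EC libraries (269 to 327 CPM) lie above all E8.5 HE and E9.5 libraries, and pre-HSC II was lowest in Hoxb (117 to 206 CPM).

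The first question was whether the clusters already differed between HE and EC at E8.5. They were less open in HE, most clearly Hoxc and Hoxd. The Hoxc level was 327, 269, 284 and 301 CPM in the 4 EC libraries and 149, 118, 167 and 126 CPM in HE. The groups did not overlap, and the HE mean was 0.475 times the EC mean. The ratio was 0.437 with scaling by total counts and 0.445 with all libraries thinned to 1 depth. Hoxd stood at 286, 236, 352 and 330 CPM in EC and 140, 150, 218 and 213 CPM in HE, a ratio of 0.598, again without overlap. Hoxa, at 480 ± 73.2 CPM for EC and 346 ± 92.4 CPM for HE (SD over 4 libraries), and Hoxb, at 386 ± 108 and 312 ± 84.7 CPM, had groups that overlapped. The flanking peaks summed to 2856 ± 316 CPM for EC against 2923 ± 437 CPM for HE, a ratio of 1.02. Sorted pools were measured, so that fewer cells with an open peak and less opening per cell cannot be told apart.

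Peak by peak the same order was seen across the clusters, but few peaks passed the test. The fold change was negative in 101 of 122 Hox peaks, with a median of -0.61, against 0.02 over all peaks tested and -0.01 in the flanks. It was negative in 22 of 23 peaks of Hoxc (median -1.03), 24 of 25 of Hoxd (-0.87), 32 of 39 of Hoxa (-0.56) and 23 of 35 of Hoxb (-0.28). At an unadjusted p of 0.05, 27 Hox peaks (22.1%) were lower and 0 higher, where over all peaks 4.91% were lower and 8.93% higher. After adjustment 1 Hox peak was called lower and 0 higher, where 1.43% of all peaks were called, 1.3% higher and 0.131% lower. DESeq2 called 4 Hox peaks, and 5.01% of the 46307 peaks to which it gave an adjusted p. Its shares below are also of such peaks, 37196 to 56719 by comparison, and not of all 67131.

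That peak, chr15:102828384-102830701 in the middle segment of Hoxc at 45 kb, was 2317 bp wide. Its level was 67.7, 44.5, 48.1 and 59.2 CPM in E8.5 EC and 21.7, 16.2, 24.3 and 16.8 CPM in E8.5 HE. All HE libraries lay below all EC libraries, and the log2 fold change was -1.46 ± 0.29 (SE; edgeR adjusted p = 0.00211). Over 16 alternative settings the adjusted p was 1.47e-07 to 0.232. The call was lost only without libraries 1 and 2 of both groups (-1.38, adjusted p = 0.232), which are the shallow libraries of that day.

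At E9.5 the clusters were again less open in HE, with ratios nearer to 1 than at E8.5 except in Hoxb (0.808 at E8.5). The Hoxd level was 315, 322, 271 and 272 CPM in EC and 210, 211, 261 and 208 CPM in HE, without overlap and with a ratio of 0.754. Hoxc gave 150, 160, 172 and 168 CPM in EC and 141, 116, 118 and 113 CPM in HE, a ratio of 0.75. Hoxb gave 502, 522, 414 and 470 CPM in EC and 382, 405, 349 and 400 CPM in HE, a ratio of 0.804. These 3 clusters did not overlap between the populations, while Hoxa did, with a ratio of 0.853. The flanks had a ratio of 0.905. The fold change was negative in 91 of 122 Hox peaks, with a median of -0.27 against 0.05 over all peaks. Of the Hox peaks 2 were called lower and 0 higher, where 2.58% of all peaks were called, 1.22% lower and 1.36% higher.

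The peak chr6:52120329-52121591, in the 3′ segment of Hoxa at 21 kb, stood at 44.9, 72.9, 71.6 and 56.6 CPM in E9.5 EC and 20.7, 23.9, 35.4 and 29.4 CPM in E9.5 HE. The groups were apart and the log2 fold change was -1.18 ± 0.31 (SE; adjusted p = 0.0211). The call was not stable to single libraries: it was lost without EC 2 (adjusted p = 0.0926), EC 3 (0.0676), HE 1 (0.107), HE 2 (0.085) or HE 4 (0.0574), and without EC 3, EC 4 and HE 4 together (0.291), within a range of 1.18e-08 to 0.291 over 16 alternatives. The other called peak, chr11:96200490-96201034 in the 3′ segment of Hoxb at 34 kb, stood at 13.6, 11.4, 17.7 and 13 CPM in EC and 5.75, 4.34, 2.28 and 3.92 CPM in HE. It did not overlap between the groups either (-1.69 ± 0.49 SE, adjusted p = 0.0438). Leaving out any 1 of the 8 libraries ended this call, with an adjusted p of 0.0761 to 0.112 without an EC library and 0.0668 to 0.14 without an HE library. It was 0.453 without EC 3, EC 4 and HE 4 together, the highest of 15 alternatives that began at 0.000401.

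At E10.5 the decrease was no longer seen in every cluster. The HE to EC ratio of the summed level was 0.808 for Hoxa, 0.987 for Hoxb, 1.54 for Hoxc and 1.16 for Hoxd, and the groups overlapped in all 4. The Hoxd ratio was above 1 only with library 4, which stood at 432 CPM in HE where the others were 195 to 213 CPM. Without library 4 of either group the ratios were 0.807 for Hoxa, 0.958 for Hoxb, 1.36 for Hoxc and 0.965 for Hoxd. The fold change was negative in 54 of 122 Hox peaks (median 0.11 against 0.01 over all peaks). In the 3′ segment of Hoxa 12 of 13 peaks were negative (median -0.45), while 19 of 23 Hoxc peaks were positive (median 0.58). Of the Hox peaks 1 was called lower and 0 higher, where 2.28% of all peaks were called, 1.57% lower and 0.717% higher.

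The called peak was the Hoxa peak at 21 kb again. It stood at 27.8, 54.9, 73.2 and 36.4 CPM in E10.5 EC and 7.25, 20.4, 32.1 and 11.3 CPM in E10.5 HE. The groups overlapped by 1 HE library (-1.36 ± 0.32 SE, adjusted p = 0.0108). The adjusted p was 0.000249 to 0.321 over 17 alternatives. The call was lost without EC 2 (0.0511), EC 3 (0.0856), HE 1 (0.069) or HE 4 (0.0585), without HE 1 and HE 4 together (0.321), in a fit of EC and HE alone (0.159) and with libraries thinned to 1 depth (0.166).

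Libraries of the same number were taken as pairs where their deviations from the group means correlated at over 0.1 in every pair. By this cutoff only EC and HE at E10.5 were paired (0.125 to 0.331). Correlations were also all positive, among others, in E9.5 HE against EC (0.054 to 0.17) and pre-HSC I against HE (0.052 to 0.122). Within the 4 pairs of E10.5 EC and HE the summed Hoxa level was lower in HE in 4 of 4, as was the share of the Hoxa counts in the 3′ segment. Hoxc was higher in HE in 4 of 4 pairs, Hoxd in 3 and Hoxb in 2. In a fit of EC and HE alone with the replicate number as a block, 4 Hox peaks were called, where 4.44% of all peaks were, and 0 Hox peaks were called in that fit without the block. The Hoxa peak at 21 kb had a log2 fold change of -1.48 (adjusted p = 0.000249). Of the other 3, named here after their values were seen, chr6:52125077-52126296 and chr6:52129334-52130016 in the 3′ segment of Hoxa were lower in HE (-0.94, adjusted p = 0.0188, and -1.58, adjusted p = 0.0365). The third was the Hoxc peak at 45 kb, which was higher in HE (0.85, adjusted p = 0.0452). Its level was 36.3, 22.6, 16.1 and 23.8 CPM in E10.5 EC and 38.6, 41.2, 27.8 and 71 CPM in E10.5 HE, higher in HE in all 4 pairs although the groups overlapped. It did not pass in the same fit without the block (0.85, adjusted p = 0.351), nor in the fit of all 34 samples (0.85 ± 0.28 SE, adjusted p = 0.0994). This is the peak that was called lower in HE at E8.5.

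Whether the difference between HE and EC changed from E8.5 to E9.5 was tested as an interaction. No Hox peak was called (0 of 122), where 1.49% of all peaks were. At an unadjusted p of 0.05 there were 8 Hox peaks, 6.56%, against 13.3% of all. DESeq2 called 0 Hox peaks and 5.22% of the 48910 peaks to which it gave an adjusted p. The fold change was positive in 20 of 23 Hoxc peaks, with a median of 0.86 against 0.03 over all peaks. The difference in Hoxc between the days was therefore not shown peak by peak.

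**Figure D3:**
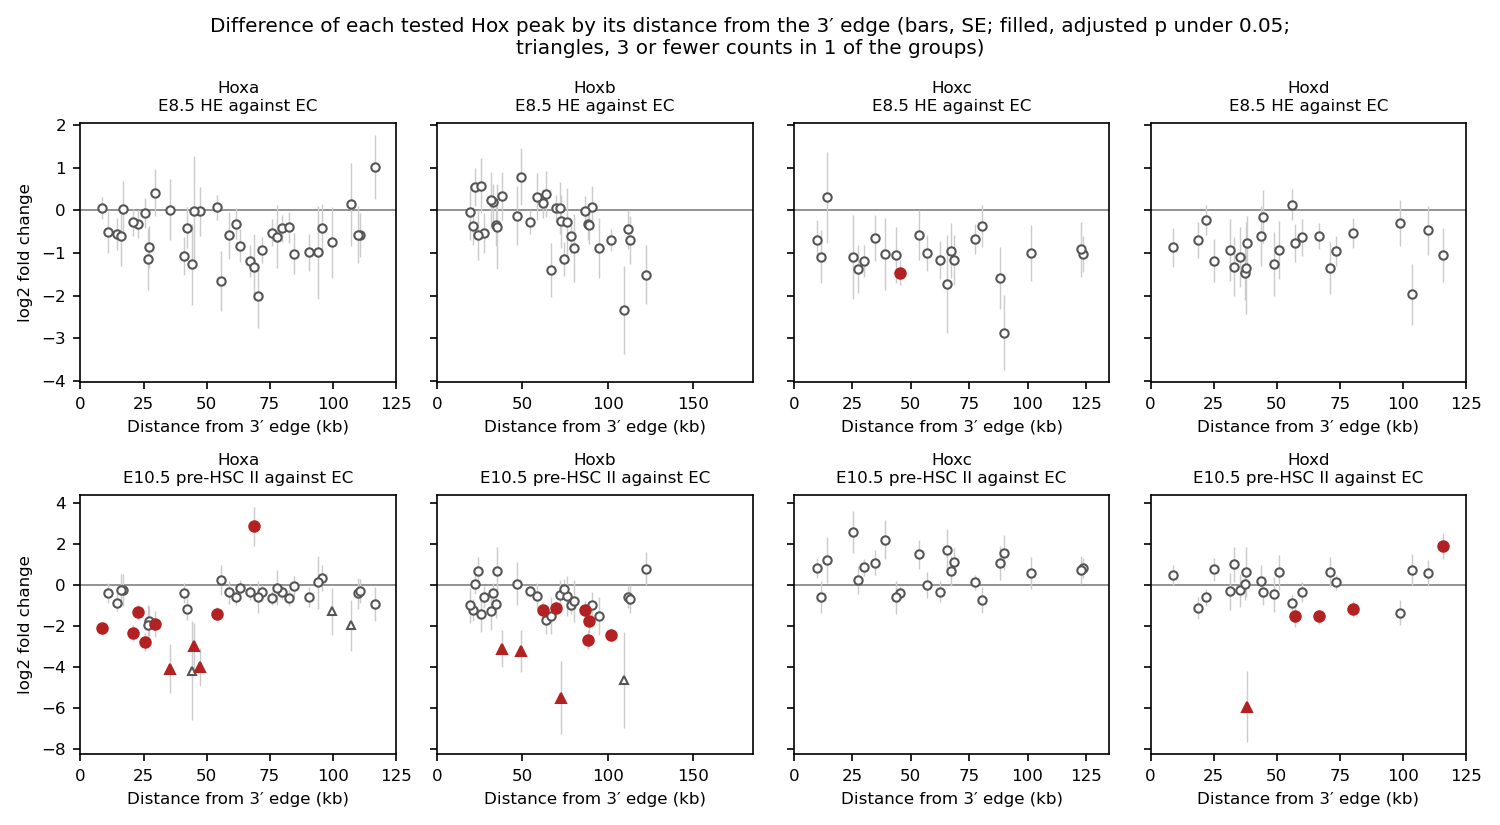
Log2 fold change of each tested Hox peak against its distance from the 3′ edge of its cluster (kb), for E8.5 HE against EC (upper row) and E10.5 pre-HSC II against EC (lower row). Bars are SE, filled symbols are called peaks, and triangles are peaks with 3 or fewer counts in 1 of the groups, whose fitted values depend on the prior count. In Hoxa the peaks of the lower row lie further below 0 in the first 50 kb than beyond, and in Hoxc most lie above 0.

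Between E8.5 and E9.5 the tissue label was the same, and the mean EC level went up in Hoxa and down in Hoxc. With TMM the Hoxa level rose above the spread, from 416, 417, 554 and 531 CPM in E8.5 EC to 594, 700, 600 and 605 CPM in E9.5 EC, a ratio of 1.3. Hoxc dropped from 327, 269, 284 and 301 CPM to 150, 160, 172 and 168 CPM, a ratio of 0.55. Neither pair overlapped with TMM, where the flanks gave a ratio of 1.21, also without overlap. With scaling by total counts the ratio was 1.12 for Hoxa, 0.468 for Hoxc and 1.04 for the flanks. The Hoxa libraries of these days overlapped with that scaling, so a gain of Hoxa beyond the spread depended on TMM. Hoxb (1.24) and Hoxd (0.98) overlapped between the days.

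Of the Hox peaks 3 were called higher and 4 lower in E9.5 EC, where 11.1% of all peaks were called, 6.51% higher and 4.56% lower, so the Hox share was below the background. In Hoxc 22 of 23 peaks were negative, with a median of -0.94 against -0.07 over all peaks. In Hoxa the peak chr6:52152809-52155337 at 54 kb, 2528 bp wide, went from 25.2, 31.4, 31.1 and 41.1 CPM to 65.3, 72.3, 59.2 and 77.4 CPM. All 4 E9.5 libraries were above all 4 of E8.5 (1.08 ± 0.29 SE, adjusted p = 0.01). It was lost without E8.5 libraries 1 and 2 (0.97, adjusted p = 0.144, the highest of 17 alternatives that began at 0.000128).

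The lower peaks were small ones. The Hoxc peak chr15:102773303-102773917, at 101 kb, went from 4.32, 7.85, 10.2 and 11.3 CPM in E8.5 EC to 1.09, 1.34, 1.77 and 1.76 CPM in E9.5 EC (-2.57 ± 0.73 SE, adjusted p = 0.0141). It was lost without E9.5 EC 1 (-2.41, adjusted p = 0.0572) and without E9.5 EC 3 and 4 and HE 4 (0.0657), within 0.000687 to 0.0657 over 16 alternatives. The Hoxa peak chr6:52168512-52168975, at 69 kb, went from 7.2, 6.98, 6.44 and 7.8 CPM to 0.779, 1.72, 0.884 and 1.05 CPM (-2.59 ± 0.84 SE, adjusted p = 0.0336). Both sets of libraries lay apart. The second call was lost without any 1 of the 8 libraries, with an adjusted p of 0.0514 to 0.105, with loess scaling (0.0902), and without E8.5 libraries 1 and 2 (0.155) or E9.5 EC 3 and 4 and HE 4 (0.161). Its lowest adjusted p over 16 alternatives was 0.00189. The Hoxa peak at 21 kb was among those called higher (0.97 ± 0.31 SE, adjusted p = 0.035), with overlap, at 25.9, 26.2, 22.7 and 48.6 CPM in E8.5 EC. Of the remaining 3, the Hoxc peak chr15:102849634-102850155 at 25 kb was called lower on few counts, given further on. The other two, named after their values were seen, were chr6:52125077-52126296 in Hoxa, at 19.9 CPM in E8.5 and 46.6 CPM in E9.5 EC (1.2 ± 0.35 SE, adjusted p = 0.0169), and chr15:102862983-102863745 in Hoxc, at 8.14 and 1.81 CPM (-1.98 ± 0.65 SE, adjusted p = 0.0357).

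HE gained accessibility in Hoxa over the same day. The Hoxa level was 253, 286, 453 and 392 CPM in E8.5 HE and 476, 470, 551 and 636 CPM in E9.5 HE, without overlap, a ratio of 1.54. It was 1.46 with libraries thinned to 1 depth. The lowest E8.5 HE levels were in the shallow libraries 1 and 2 (1634087 and 1502905 counts), where libraries 3 and 4 held 5657077 and 5733154. E8.5 EC libraries 1 and 2 were likewise below 3 and 4. The part of depth or library number in this difference was not tested. The fold change was positive in 31 of 39 Hoxa peaks (median 0.5 against -0.02 over all peaks), and in the middle segment, where the median was 0.75, 10 of 17 peaks were higher at an unadjusted p of 0.05, against 7.34% of all peaks. After adjustment 1 Hox peak was called higher and 1 lower, where 2.13% of all peaks were called, 0.895% higher and 1.24% lower.

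The Hoxa peak called higher, chr6:52110601-52111526 at 11 kb, stood at 1.2, 0, 6.6 and 5.67 CPM in E8.5 HE and 15.2, 11.6, 12.6 and 14.1 CPM in E9.5 HE (1.72 ± 0.45 SE, adjusted p = 0.0266). The Hoxc peak called lower, chr15:102864615-102865902 at 10 kb, stood at 19.3, 16.9, 9.05 and 10.1 CPM in E8.5 HE and 5.32, 4.01, 4.56 and 2.35 CPM in E9.5 HE (-1.67 ± 0.49 SE, adjusted p = 0.0488). Neither overlapped between the days. Both calls were fragile. The first was lost without E8.5 HE 1 (adjusted p = 0.108) or 2 (0.102), E9.5 HE 1 (0.0721), 3 (0.0502) or 4 (0.0773), without E8.5 libraries 1 and 2 (0.557) or E9.5 EC 3 and 4 and HE 4 (0.0896), or thinned (0.146), and its range over 17 alternatives was 0.000697 to 0.557. The second was lost without E8.5 HE 1 (0.199), 2 (0.167) or 4 (0.0551) or any E9.5 HE library (0.0751 to 0.189), and in 5 of the other alternatives, and its range over 17 alternatives was 0.00197 to 0.605.

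From E9.5 to E10.5, where the tissue label also changed, 0 Hox peaks were called in EC and 0 in HE, where 0.316% and 0.556% of all peaks were. At an unadjusted p of 0.05 there were 6 Hox peaks in EC, all lower, and 6 in HE, against 9.14% (4.78% lower) and 11.2% of all peaks. DESeq2 called 1 in each, against 2.32% of 37196 peaks in EC and 3.08% of 43704 in HE. In EC 33 of 35 Hoxb peaks and 23 of 25 Hoxd peaks were negative, with medians of -0.49 and -0.31 against 0.04 over all peaks. The summed Hoxd level was lower without overlap, at 192, 229, 210 and 265 CPM in E10.5 EC, a ratio of 0.759 to E9.5. In HE the median over Hoxc was 0.47, with 17 of 23 peaks positive.

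**Figure D4:**
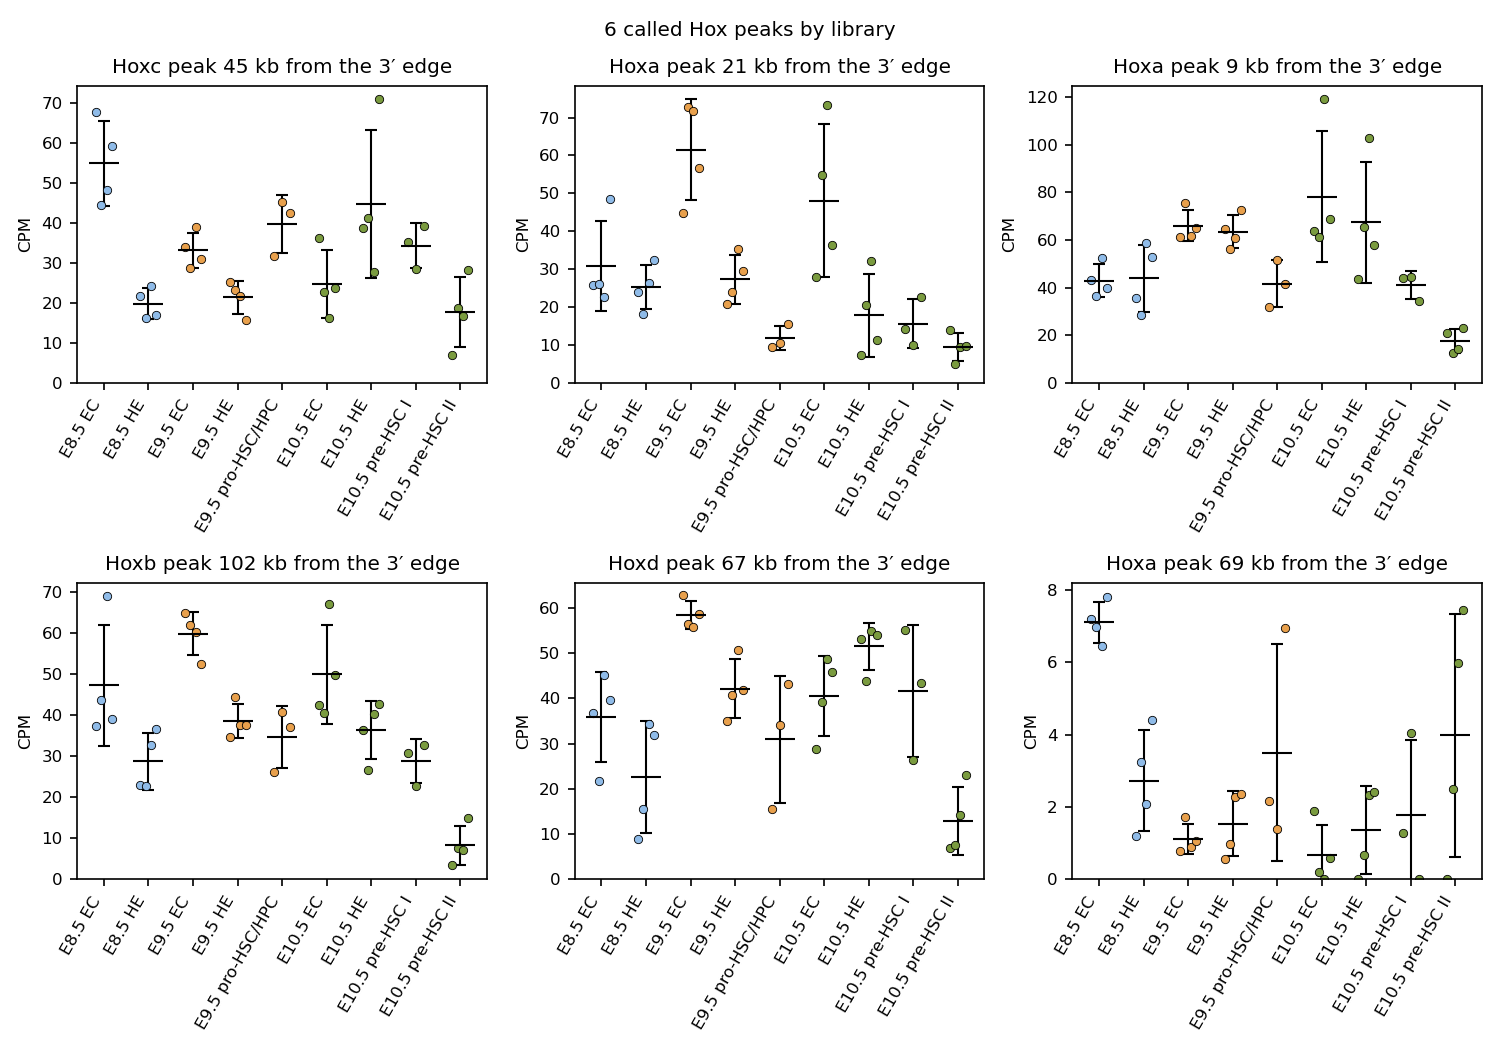
Level (CPM) of 6 Hox peaks in every library, by group, with group mean and SD. The Hoxc peak at 45 kb has its highest mean in E8.5 EC (libraries 44.5 to 67.7 CPM), and the Hoxa peak at 9 kb and the Hoxb peak at 102 kb are lowest in pre-HSC II (at most 23 and 14.9 CPM).

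The next step at E9.5 was from HE to pro-HSC/HPC, in which 0 of 122 Hox peaks were called, where 1.74% of all peaks were. At an unadjusted p of 0.05 there were 17 (13.9%), against 14.2% of all. DESeq2 called 2, against 4.19% of the 56719 peaks to which it gave an adjusted p. The clusters differed in direction. In the 3′ segment of Hoxa 10 of 13 peaks were negative, with a median of -0.73 against 0.02 over all peaks, while 16 of 23 Hoxc peaks were positive with a median of 0.4. In the 3′ segment of Hoxc 8 of 9 were positive (median 1.13). The Hoxa peak at 21 kb, at 9.53, 10.6 and 15.4 CPM in pro-HSC/HPC, lay below all E9.5 HE libraries but did not pass (-1.23 ± 0.38 SE, adjusted p = 0.0756). The Hoxb peak at 34 kb, at 1.09, 0.923 and 0 CPM, did the same (-2.34 ± 0.72 SE, adjusted p = 0.0732).

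From E10.5 HE to pre-HSC I 0 of 122 Hox peaks were called, where 0.07% of all peaks were. At an unadjusted p of 0.05 there were 4, against 8.17% of all. DESeq2 called 0, against 0.514% of the 46307 peaks to which it gave an adjusted p. The median over Hox peaks was -0.14, against 0.00 over all peaks.

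The pre-HSC II libraries had the lowest mean level of Hoxb of all groups. For Hoxa the lowest mean depended on the scaling: pre-HSC II stood at 303 CPM and E8.5 HE at 346 CPM with TMM, but at 356 and 337 CPM with total counts and at 349 and 324 CPM thinned, and the libraries overlapped. The Hoxb level was 349, 244 and 304 CPM in pre-HSC I and 117, 142, 192 and 206 CPM in pre-HSC II, without overlap, a ratio of 0.55. Hoxa gave 534, 416 and 454 CPM in pre-HSC I and 260, 168, 437 and 347 CPM in pre-HSC II, with overlap and a ratio of 0.648. The flanks also dropped, with a ratio of 0.736 and no overlap. Of the Hox peaks 5 were called lower and 0 higher, where 4.93% of all peaks were called, 4.09% lower and 0.84% higher. The scaling mattered here for all peaks: their median was -0.16 with TMM and 0.11 with RLE size factors, and 564 were called higher and 2747 lower with TMM, against 898 and 1241 with RLE. The Hox split was 0 higher and 4 lower with RLE and 0 and 3 with loess scaling.

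The peaks called lower included 3 broad ones of 1496 to 2232 bp in Hoxa, Hoxb and Hoxd. The Hoxb peak chr11:96131904-96134136, at 102 kb and 2232 bp wide, stood at 30.8, 22.8 and 32.8 CPM in pre-HSC I and 3.49, 7.52, 7.17 and 14.9 CPM in pre-HSC II (-1.65 ± 0.36 SE, adjusted p = 0.0026). The groups were apart, but the call was lost in a fit of these groups alone (adjusted p = 0.0777), with a replicate block (0.114) and thinned (0.0732), within 0.000335 to 0.114 over 16 alternatives. The Hoxd peak chr2:74542267-74544226, at 67 kb, stood at 55.2, 26.3 and 43.5 CPM in pre-HSC I and 6.98, 7.52, 14.3 and 23 CPM in pre-HSC II (-1.56 ± 0.37 SE, adjusted p = 0.00756), and was lost without pre-HSC I library 1 (0.0769) or with loess (0.056). The Hoxa peak chr6:52107893-52109389, at 9 kb, had the highest level per kb of its cluster. It stood at 44.3, 44.5 and 34.5 CPM in pre-HSC I and 20.9, 12.5, 14.3 and 23 CPM in pre-HSC II (-1.2 ± 0.32 SE, adjusted p = 0.0172). That call was lost in 6 of 16 alternatives, among them RLE scaling (0.0573) and leaving out pre-HSC I library 1 (0.0687), within 0.00327 to 0.265. The remaining 2 were Hoxb peaks with few counts in pre-HSC II. The peak chr11:96161832-96162396, at 73 kb, had 0 counts there and 29 in pre-HSC I, where 3 counts over the group put it at least 6.59-fold lower, and chr11:96196430-96196890, named after its values were seen, had 2 against 36 counts, a ratio of pre-HSC I to pre-HSC II of 12.3 with a 95% counting interval of 3.16 to 105.

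Set against EC of the same day, pre-HSC II showed the most called Hox peaks, 2 higher and 22 lower, where 25.3% of all peaks were called, 9.14% higher and 16.2% lower. The Hox share thus lay below that of all peaks in total and near it for lower ones. With RLE scaling the Hox split was 5 and 17, and that of all peaks 8325 and 7693 rather than 6138 and 10845, as the median over all peaks moved from -0.14 to 0.13. The clusters again differed. The Hoxa level was 494, 562, 858 and 577 CPM in EC, a ratio of pre-HSC II to EC of 0.486, and Hoxb was 328, 367, 420 and 344 CPM in EC, a ratio of 0.45, both without overlap. With RLE scaling these ratios were 0.597 and 0.547, and that of the flanks was 0.822 (0.672 with TMM). Hoxd (0.716) and Hoxc (1.3) overlapped. In Hoxa 35 of 39 peaks were negative (median -0.6, with 9 called lower and 1 higher) and in Hoxb 30 of 35 (median -1, with 9 lower and 0 higher). In Hoxc 17 of 23 were positive (median 0.83) and 0 were called. Among the Hoxc peaks 4 were higher at an unadjusted p of 0.05, against 14.1% of all peaks. Medians with peaks of 0 counts set at their bound were -0.6 in Hoxa and -0.97 in Hoxb.

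The firmest of these were the Hoxb peak at 102 kb and the Hoxa peak at 9 kb. The Hoxb peak stood at 42.4, 40.4, 66.9 and 49.8 CPM in E10.5 EC, above the 3.49 to 14.9 CPM of pre-HSC II (-2.45 ± 0.33 SE, adjusted p = 3.56e-08, and 4.83e-09 to 0.000175 in 16 alternatives). The Hoxa peak stood at 63.6, 61.2, 119 and 68.9 CPM in EC, above the 12.5 to 23 CPM of pre-HSC II (-2.13 ± 0.29 SE, adjusted p = 8.54e-08, and 2.63e-09 to 4.31e-05 in 16 alternatives). Neither lost its call in any of these. The Hoxa peak at 21 kb was also lower, at 14, 5.01, 9.55 and 9.66 CPM in pre-HSC II (-2.37 ± 0.39 SE, adjusted p = 3.69e-06), and did not overlap with EC. The Hoxd peak at 67 kb, at 28.8, 39.2, 48.7 and 45.7 CPM in EC, was lower without overlap (-1.54 ± 0.35 SE, adjusted p = 0.000584), and lost its call when thinned (-0.77, adjusted p = 0.149, the highest of its alternatives, which began at 8.91e-05).

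The calls of the 2 peaks that were higher in pre-HSC II depended on single libraries, while their direction was the same in the 15 alternatives run for each. The Hoxd peak chr2:74493721-74494317, at 116 kb near the 5′ edge, stood at 1.89, 1.58, 1.73 and 7.04 CPM in EC and 14, 10, 19.1 and 4.46 CPM in pre-HSC II (1.9 ± 0.65 SE, adjusted p = 0.0226). It was lost without EC 1 (0.0586), EC 2 (0.081), EC 3 (0.0766), pre-HSC II 1 (0.057) or pre-HSC II 3 (0.133), and with a replicate block (0.0579), within 0.000996 to 0.133, while the fold change was 1.44 to 2.95. All pre-HSC II libraries but 1 lay above every EC library. The Hoxa peak at 69 kb stood at 1.89, 0.198, 0 and 0.586 CPM in EC and 0, 2.5, 5.97 and 7.43 CPM in pre-HSC II (2.84 ± 0.96 SE, adjusted p = 0.0218). It was lost without EC 2 (0.077), EC 3 (0.0787), pre-HSC II 3 (0.0578) or pre-HSC II 4 (0.129), without library 4 of every E10.5 group (0.143), in a fit of these groups alone (0.0777) and with a replicate block in that fit (0.211), within 0.00295 to 0.211. Its fold change was 2.25 to 3.8 in these. It rests on few counts, 7 in EC and 17 in pre-HSC II over the libraries of each group. The groups overlapped in both peaks.

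The clearest pattern by position was in Hoxa, given as a description with no test between segments. In pre-HSC II against EC all 13 tested peaks of the Hoxa 3′ segment were negative (median -1.77) and 6 were called lower, where 16.2% of all peaks were. These values are with TMM, and in this comparison the median over all peaks moved with the scaling, as given above. The 3′ segment held 45.3 ± 2.49% (SD, n = 4) of the Hoxa counts in E9.5 EC, 38.5 ± 1.09% (SD, n = 4) in E9.5 HE and 27.6 ± 1.18% (SD, n = 3) in pro-HSC/HPC. These 3 groups did not overlap, at 42.1 to 48.2%, 37.4 to 39.8% and 26.5 to 28.9%. At E10.5 the share was 47.2 ± 2.95% in EC, 38.8 ± 4.53% in HE (SD, n = 4 each), 32.9 ± 3.06% in pre-HSC I (SD, n = 3) and 30.9 ± 8.51% in pre-HSC II (SD, n = 4), where HE reached from 33.3 to 43.5% and overlapped with both EC and pre-HSC I. At E8.5 the means stood in the other order, at 39.6 ± 2.12% in EC and 44.3 ± 2.79% in HE (SD, n = 4 each), but the groups overlapped. The share of the middle segment ran the other way, with 47.2 ± 1.81%, 51.6 ± 1.01% and 60.2 ± 1.97% in E9.5 EC, HE and pro-HSC/HPC (SD, n = 4, 4 and 3). A share is a part of a fixed sum and does not show which segment changed.

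**Figure D5:**
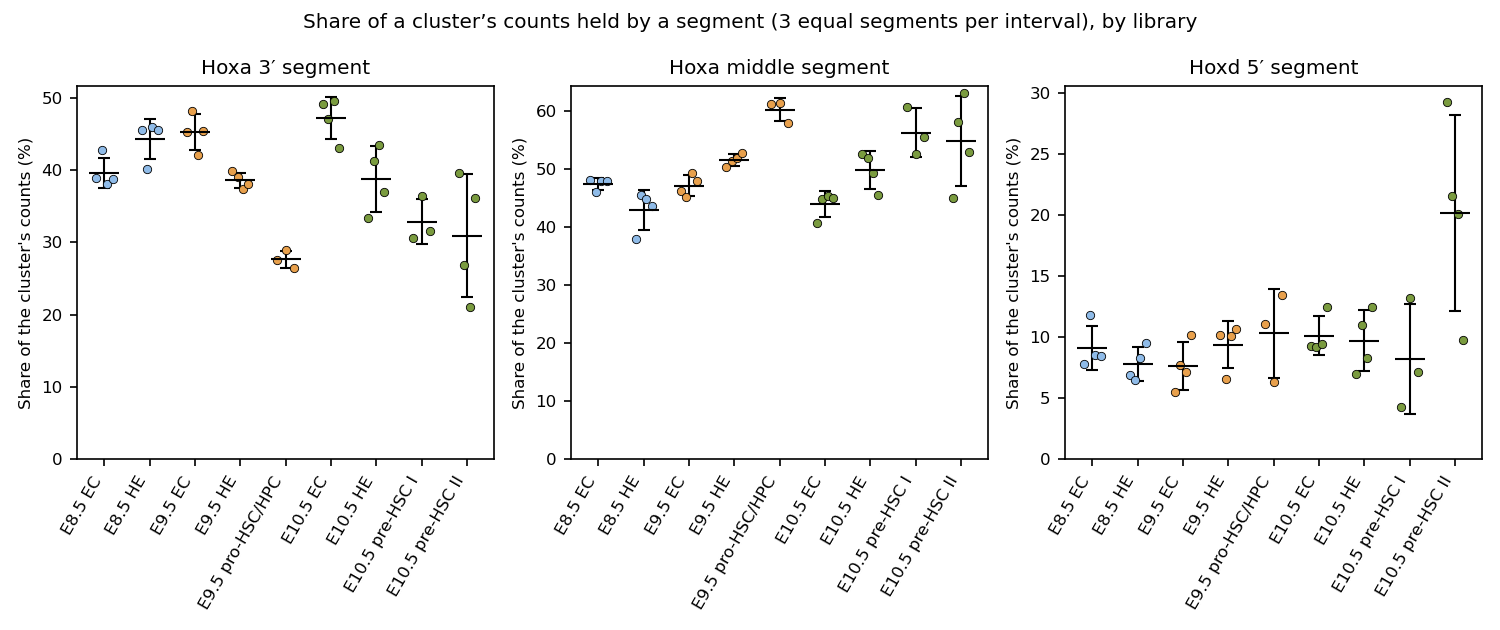
Share (%) of a cluster's counts in the 3′ and the middle segment of Hoxa and in the 5′ segment of Hoxd, for each library, with group mean and SD. The Hoxa 3′ share steps from 45.3% in E9.5 EC through 38.5% in HE to 27.6% in pro-HSC/HPC, and the Hoxd 5′ share is widest in pre-HSC II (9.74 to 29.3%).

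In Hoxb the decrease in pre-HSC II against EC lay mostly in the middle segment, where 19 of 20 peaks were negative (median -1.17) and 7 were called lower. Of all peaks 16.2% were called lower, and the limit of scaling given for Hoxa holds here too. The 1 peak of the Hoxb 5′ segment held 0.45 to 0.921% of the cluster's counts in the group means. In Hoxd the 5′ segment held 20.2 ± 8.05% of the counts in pre-HSC II (SD, n = 4; 9.74 to 29.3%) and 7.65 to 10.3% in the other 8 group means. The pre-HSC II libraries are shallow, and 1 count weighs most there.

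At E10.5 the levels of the clusters moved with the library number. Library 4 had the highest Hoxc level in EC (154 CPM), HE (298 CPM), pre-HSC I (291 CPM) and pre-HSC II (262 CPM), where the other libraries reached at most 146, 189, 176 and 152 CPM. It also had the highest Hoxd level in all 4 groups (265, 432, 284 and 229 CPM). In Hoxa it was library 3 that was highest in EC (858 CPM), HE (727 CPM) and pre-HSC II (437 CPM), and library 1 in pre-HSC I, where library 3 was merged with library 2. In Hoxb library 3 was highest in EC and HE, library 1 in pre-HSC I and library 4 in pre-HSC II. Without library 4 of every group the ratio of the Hoxc level to EC was 1.36 in HE, 1.38 in pre-HSC I and 1.12 in pre-HSC II, and that of Hoxd 0.965, 0.937 and 0.654. The labels do not say what a library number stands for, and its part in the E10.5 results was not tested.

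The highest peaks per kb of the other clusters lay inside them. In Hoxb the highest was chr11:96146389-96147006 at 88 kb (37.9 CPM per kb), which was lower in pre-HSC II than in EC (-2.68 ± 0.46 SE, adjusted p = 9.05e-06). In Hoxd it was chr2:74553763-74554417 at 56 kb (23.2 CPM per kb), with 24.9, 25, 21.2 and 21.1 CPM in E9.5 EC and 11.4, 6.46 and 6.17 CPM in pro-HSC/HPC. These are the groups with the highest and the lowest mean of this peak (23.1 and 8.02 CPM), so their lack of overlap is only a description. Their difference was not tested here. In Hoxc it was chr15:102796885-102797813 at 78 kb (16.5 CPM per kb), whose highest and lowest group means were 0.69 apart on the log2 scale, against a median of 1.8 over Hoxc peaks.

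The widest differences between group means belonged to small peaks. The Hoxb peak at 73 kb and the Hoxa peak chr6:52143944-52144381, at 44 kb, had 0 counts in all pre-HSC II libraries. The Hoxd peak chr2:74571435-74571705, at 38 kb, had 0 counts in pre-HSC II and 41 in E10.5 EC, where 3 counts over the group put it at least 3.46-fold lower. The Hoxc peak chr15:102849634-102850155, at 25 kb, had 3 counts in E9.5 EC and 27 in E8.5 EC, a ratio of E8.5 to E9.5 of 17.6 with a 95% counting interval of 5.42 to 90.7. Reads were amplified by PCR without molecular identifiers. All bounds and counting intervals given here take every count as independent and leave out the spread between libraries. Even counts were in excess (54.1 to 78.2% of counts from 10 to 49), so counts may not be independent. The bounds and intervals may therefore be too narrow even for counting error.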

How the data were processed

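The authors deposited 1 table of raw, not normalized read counts for 76018 peaks and 35 ATAC-seq libraries. Per the submitters' processing notes, which give no role or order, they used mm9, DiffBind 1.14.6, MACS2 2.0.1, Bowtie 1.0.0 and Trim Galore 0.3.1, and also bedtools 2.17.0, SAMtools and deepTools. Read filtering and transposase shifting are not given in the sources used here, nor whether positions count from 0 or 1. Even counts were in excess (54.1 to 78.2% of counts from 10 to 49). Per the labels, libraries had 13 PCR cycles. The E9.5 tissue label names E8.5, and days came from titles. Pre-HSC I libraries 2 and 3 (chi-square 0.4606 per degree of freedom, against 2.59 to 8.04 in 50 other pairs) were averaged and rounded.

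Peaks were filtered with filterByExpr by group (8887 removed), scaled by TMM, and tested two-sided by edgeR 4.0.16 (glmQLFit, glmQLFTest; R 4.3.3) in 1 fit of 34 samples (common dispersion 0.147, residual degrees of freedom 25). The test was also run on simulated data, with means, library totals and dispersion taken from these data, and that outcome is not given here. CPM are counts over TMM-adjusted library totals. Cluster levels are sums of the CPM of all member peaks, described with no test. Python 3.11.15, pandas 2.3.3, numpy 2.4.6, scipy 1.17.1 and matplotlib 3.10.9 made the summaries. Depth sets precision: the shallowest library held 456770 counts.

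The members and lists were chosen with earlier results of these data known. Named were, in each comparison, cluster and direction, the called peak with the smallest adjusted p, and in each cluster the peak with the highest mean CPM per kb and the tested peak with the largest range of group means. Alternatives were RLE, total-count and loess (limma 3.58.1) scaling, DESeq2 1.42.0, no count filter, only the groups compared, a replicate block in such a fit, and leaving out each library. Thinning to the shallowest library, keeping pre-HSC I libraries apart and leaving out doubted libraries were taken up with earlier results known, and leaving out library 4 of every E10.5 group was chosen after seeing the data. Replicate numbers paired samples, with a correlation of deviations over 0.1 in every pair, only in E10.5 HE against EC (0.125 to 0.331). Only there is the blocked fit given as a result of paired samples. In other comparisons blocked values are given only among the alternatives. Gene order, promoters and microRNAs came from RefSeq tables of GRCm38.p6. No mm9 genome was used here.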

Additional observations from a re-analysis of the deposited data

Results flagged for a closer look

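In 9 of the 107 groups of 4 libraries examined, 1 library lay far from the other 3 by Dixon's test. Chance flags about 1 group in 20. In the cluster levels, E9.5 EC library 2 stood at 700 CPM in Hoxa (others 594 to 605), E9.5 HE library 1 at 141 CPM in Hoxc (113 to 118), E9.5 HE library 3 at 261 CPM in Hoxd (208 to 211) and E10.5 HE library 4 at 432 CPM in Hoxd (195 to 213). Among single peaks, E8.5 HE library 1 stood at 2.41 CPM in chr11:96161832-96162396 of Hoxb (3.89 to 4.15), and E8.5 HE library 2 at 9.07 CPM in chr15:102796885-102797813 of Hoxc (12 to 12.6). E10.5 EC library 4 stood at 7.04 CPM in chr2:74493721-74494317 of Hoxd (1.58 to 1.89), and E10.5 EC library 3 at 119 CPM in chr6:52107893-52109389 of Hoxa (61.2 to 68.9). E10.5 HE library 4 stood at 6.45 CPM in chr6:52143944-52144381 of Hoxa (0 to 0.681).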

How the results depend on the processing

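The number of called Hox peaks depended on the model, and so did the share of peaks called. In E8.5 HE against EC that share was 1.43% of 67131 peaks in the main fit. With DESeq2 it was 5.01%, of the 46307 peaks to which DESeq2 gave an adjusted p. In E10.5 HE against EC it was 2.28% in the main fit and 4.44% with the replicate block. The counts below are of the Hox peaks tested in each setting, 122 in the main fit. The set tested can differ without the count filter, with thinned libraries and with DESeq2, which leaves some peaks without an adjusted p. The counts are given without the share of all peaks in each setting. They show how the calls moved and are not a result about Hox peaks. In a fit of only the groups compared it was 7 in E8.5, 5 in E9.5 and 0 in E10.5 HE against EC, 24 in EC and 9 in HE from E8.5 to E9.5, 3 in EC from E9.5 to E10.5, 4 in pro-HSC/HPC against HE, 1 for pre-HSC II and pre-HSC I, and 1 in the interaction. With the replicate number as a block these were, in the same order, 11, 9, 4, 19, 14, 2, 2, 1 and 2, and 14 in pre-HSC II against EC. With DESeq2 there were 4, 3 and 2 in HE against EC, 12 in EC and 5 in HE from E8.5 to E9.5, 1 each from E9.5 to E10.5, and 2 in pro-HSC/HPC. Loess gave 2 in E8.5 and 2 in E10.5 HE against EC, 1 in HE from E9.5 to E10.5 and 3 for pre-HSC II and pre-HSC I. RLE gave 1 in HE from E9.5 to E10.5, and no filter gave 1 in HE from E8.5 to E9.5. Thinned libraries gave 2, 1 and 0 in HE against EC, 4 in EC from E8.5 to E9.5, 1 in HE from E9.5 to E10.5, 7 in pre-HSC II against EC and 1 against pre-HSC I. Keeping the pre-HSC I libraries apart, or leaving out library 4 of every E10.5 group, gave 9 for pre-HSC II and pre-HSC I.

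Without E8.5 libraries 1 and 2 there was 1 call in EC from E8.5 to E9.5 and 0 in E8.5 HE against EC and in HE. Without E10.5 HE libraries 1 and 4 there were 0 in HE against EC. Without E9.5 EC 3 and 4 and HE 4 there were 2 in EC from E8.5 to E9.5, and 0 in E9.5 HE against EC and in HE. Leaving out 1 library gave 1 to 2 calls in E8.5, 0 to 1 in E9.5 and 0 to 3 in E10.5 HE against EC, 3 to 5 in EC and 0 to 4 in HE from E8.5 to E9.5, 0 to 1 in HE from E9.5 to E10.5, 18 to 28 in pre-HSC II against EC and 0 to 0 in the other 4 comparisons. For pre-HSC II and pre-HSC I it gave 3 (without pre-HSC I library 1) to 14 (without pre-HSC II library 4). Apart from sets with fewer samples, the cause was not tested.

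Of the 273 values of named peaks under alternatives, 191 kept the call, 82 lost it and 0 reversed. Of 108 cluster levels, 101 moved by less than 1 SD. The others were, with total-count scaling, Hoxa 565 CPM in E9.5 EC, Hoxb 356 CPM in E9.5 HE, Hoxc 147 CPM and Hoxd 267 CPM in E9.5 EC, and thinned, Hoxb 345 CPM in E9.5 HE, Hoxc 323 CPM in E8.5 EC and 132 CPM in E9.5 EC. Depth limits what single peaks can show most in pre-HSC II, where a library held at most 1241216 counts.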
